A study of Saccharomyces cerevisiae with 12 samples.

Results

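The DAN and TIR genes of budding yeast encode mannoproteins of the cell wall that cells make mainly without oxygen. The genes described here are DAN1, DAN4, TIR1, TIR2, TIR3 and TIR4, chosen by name from the count table, 6 of its 7126 features, and all 6 passed the filter on low counts. Their choice drew on the response to KCl in these libraries, so for these 6 genes that response is given as a description, and the tests are of the differences between strains. For other genes of the pathway the KCl response is given with its adjusted p, and those lists were also chosen with earlier results of these data known. Poly(A) RNA was sequenced from haploid MATa cells in the BY4741 background, grown in synthetic medium with ammonium chloride as the nitrogen source. There were 4 groups of 3 replicates: crz1cnb1 after 48 h in 400 mM KCl, crz1cnb1 at 0 h, crz1 after 48 h in 400 mM KCl, and crz1 at 0 h. Every group carried his3delta1, ura3delta0, leu2delta0, lys2delta0, crz1delta::LEU2 and a HYG-TEFp-GFP(Y66F) cassette on chromosome VI, and crz1cnb1 also carried cnb1delta::KanMx. Crz1 is a transcription factor switched on by the phosphatase calcineurin, and Cnb1 is calcineurin's regulatory subunit. No strain with both genes intact was analysed here, so the data compare calcineurin present with calcineurin absent in cells that all lack Crz1.

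The proteins are rich in serine and threonine, carry mannose chains and are attached to the wall through a lipid anchor. In oxygen-starved cells they take over from the wall proteins Cwp1 and Cwp2, and TIR1, TIR3 and TIR4 are needed for growth without air. Their promoters are held down in air by the repressors Rox1 and Mot3 with the corepressor Tup1-Cyc8, and are switched on by Upc2, a zinc-cluster activator that senses sterols, partly through a promoter element called AR1. TIR1 and TIR2 are also known as genes of cold shock.

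DAN1 (YJR150C) and DAN4 (YJR151C) are neighbours on the reverse strand of chromosome X in the R64 build, at 708811 to 709707 and 712255 to 715740, with 2547 bp between them. TIR4 (YOR009W, forward, 344335 to 345798) and TIR2 (YOR010C, reverse, 346195 to 346950) face each other on chromosome XV with 396 bp between them. On its other side TIR2 lies next to AUS1, which encodes an importer of sterols used without oxygen. TIR1 (YER011W) is on the forward strand of chromosome V at 175248 to 176012, and TIR3 (YIL011W) on that of chromosome IX at 333727 to 334536. Each gene is 1 coding exon, and the annotation places no other gene over any of the 6. Coding lengths ran from 756 bp in TIR2 to 3486 bp in DAN4. Codons for serine or threonine made up 34.2% of DAN1, 49.4% of DAN4, 30.7% of TIR1, 33.9% of TIR2, 34.6% of TIR3 and 41.3% of TIR4.

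The coding sequences resemble each other without sharing long stretches. Identity over aligned bases was 78.5% for TIR1 and TIR2, 78.4% for DAN1 and DAN4, and lowest, at 60.8%, for DAN1 and TIR3. DAN4, the longest gene, also had 77.8% with TIR1, 78.0% with TIR2 and 77.9% with TIR3. Bases opposite gaps are not counted in these shares. Of the 50-base words in each gene, 0% occurred elsewhere in the genome in any of the 6. Inside the gene, repeats made up 19.9% of such words in DAN4, 20.2% in TIR4 and 13.0% in TIR1. How the authors' counting treated reads with several matches is not given in the sources used here.

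DAN1 was the gene of the 6 that differed most between KCl and 0 h, DAN4 is its neighbour, and TIR1 was the most abundant. For this reason the promoters of DAN1, DAN4 and TIR1 are shown. Each is the stretch of 300 bases that precedes the last 100 bases before the start codon, read 5′ to 3′ on the coding strand from the RefSeq R64 genome. Capitals mark matches to the Upc2 motif, written TCGTATA or, on the other strand, TATACGA. They also mark the first letters of AR1, searched as TCGTTCA and as TCGTTTA, and the Rox1 core ATTGTT, which reads AACAAT on the other strand.
DAN1 (chrX:709808-710107, strand -): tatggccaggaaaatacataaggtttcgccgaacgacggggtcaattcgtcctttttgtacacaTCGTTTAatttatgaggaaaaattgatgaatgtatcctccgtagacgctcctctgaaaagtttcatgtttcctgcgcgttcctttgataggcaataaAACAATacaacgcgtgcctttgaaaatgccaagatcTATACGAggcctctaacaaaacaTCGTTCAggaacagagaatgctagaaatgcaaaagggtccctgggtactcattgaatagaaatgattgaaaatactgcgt
DAN4 (chrX:715841-716140, strand -): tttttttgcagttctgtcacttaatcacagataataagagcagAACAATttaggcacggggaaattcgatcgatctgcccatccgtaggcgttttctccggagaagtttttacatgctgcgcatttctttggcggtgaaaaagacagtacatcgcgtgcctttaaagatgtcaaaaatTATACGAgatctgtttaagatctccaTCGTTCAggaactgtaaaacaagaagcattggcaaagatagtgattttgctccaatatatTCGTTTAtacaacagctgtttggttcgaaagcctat
TIR1 (chrV:174848-175147, strand +): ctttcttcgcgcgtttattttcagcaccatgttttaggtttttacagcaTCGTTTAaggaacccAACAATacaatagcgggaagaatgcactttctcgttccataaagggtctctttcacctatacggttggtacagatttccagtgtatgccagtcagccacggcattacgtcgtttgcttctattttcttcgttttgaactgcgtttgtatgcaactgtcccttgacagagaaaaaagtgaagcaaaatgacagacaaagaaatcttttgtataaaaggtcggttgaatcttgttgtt

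DAN1 and DAN4 share an arrangement in these letters. In each, a reverse match to the Upc2 motif is followed by a forward TCGTTCA, and the bases just after that TCGTTCA start the same way, with ggaac. In the 600 bases before the start codon, the Upc2 match began 203 bases before it in DAN1 and 222 bases before it in DAN4, and the TCGTTCA match began 180 and 196 bases before it. Both promoters held 3 AR1 matches and 1 Upc2 match. In DAN4, 1 AR1 match overlapped a reverse TATAAA, and in TIR2 a forward and a reverse TATAAA overlapped. Of 5985 yeast promoters of the same length, searched on both strands, 8.59% held the Upc2 motif, 16.8% held at least 1 AR1 match and 0.351% held at least 3.

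TIR1 and TIR3 each held 1 Upc2 match and 1 AR1 match in that window, and of TIR1's only the AR1 match falls in the printed stretch. TIR2 and TIR4 held 0 Upc2 matches and 1 AR1 match each. The Rox1 core occurred in all 6 promoters and in 54.9% of the 5985. The Mot3 cores AGGCA and AGGTA also occurred in all 6, and in 85.9% of the 5985. TATAAA occurred in 5 of the 6, all except TIR3, and in 65.2% of the 5985. A match is a string of letters and not a measured binding site, and the DAN and TIR promoters are among those on which AR1 was first described.

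**Figure D1:**
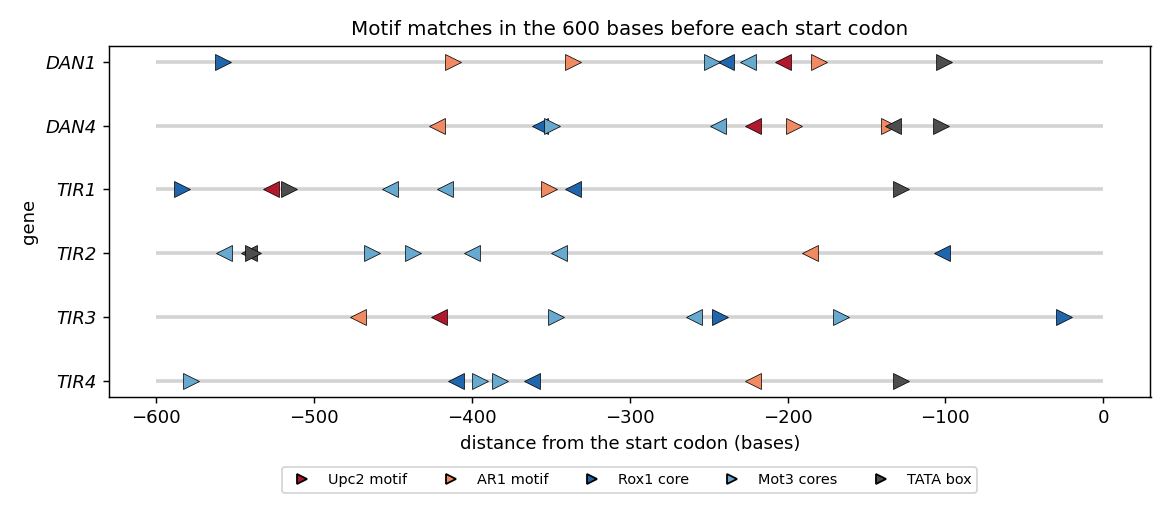
Matches to the Upc2, AR1, Rox1, Mot3 and TATA motifs in the 600 bases before each start codon, by distance in bases, with arrowheads that point right on the coding strand and left on the other. DAN1 and DAN4 hold 3 AR1 matches each and TIR1, TIR2, TIR3 and TIR4 hold 1 each.

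The libraries were nearly equal in depth, with 21305485 to 21599279 counts each, and the 6 genes had 4 to 896 counts per library. CNB1 had 31 to 68 counts in crz1cnb1 in KCl and 14 to 31 in crz1cnb1 at 0 h, against 2416 to 3139 in crz1 in KCl and 1346 to 2889 in crz1 at 0 h. CRZ1 had 3 to 19 counts in all 12 libraries. No untreated cells were sampled at 48 h, so an effect of KCl cannot be told apart from one of 48 h in culture. Whether the replicates came from separate cultures is not in the labels, and a p-value here stands for the spread of these libraries, which may be technical. In bulk RNA, fewer cells that express a gene and less RNA per cell cannot be told apart.

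Levels are compared between genes in TPM, a share of all transcripts that is corrected for gene length. At 0 h the order was the same in both strains: TIR1, TIR3, TIR2, TIR4, DAN4, DAN1. In crz1cnb1 at 0 h TIR1 averaged 21.6 ± 12.5 TPM and DAN1 0.275 ± 0.11 TPM (SD, n = 3). In crz1 at 0 h TIR1 averaged 23.4 ± 9.13 TPM and DAN1 0.687 ± 0.31 TPM (SD, n = 3). The 4 TIR genes overlapped with their neighbours in that order, while DAN4 lay below TIR4 and DAN1 below DAN4 in every library of both strains.

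In KCl DAN1 was no longer the lowest of the 6. In crz1 in KCl it ranked 4 of 6, at 8.28 ± 2.08 TPM (SD, n = 3). There it overlapped TIR2, at 8.78 ± 2.86 TPM, and TIR4, at 6.61 ± 2.66 TPM, and DAN4 was last at 2.91 ± 1.05 TPM, with all 3 libraries below those of DAN1 and TIR4. In crz1cnb1 in KCl DAN1 ranked 5 of 6, at 3.41 ± 0.32 TPM, and overlapped TIR4, at 5.63 ± 3.53 TPM, and DAN4, at 2.99 ± 0.82 TPM (SD, n = 3 each). TIR1 stayed first, with 30.3 ± 4.91 TPM in crz1cnb1 in KCl and 37.3 ± 4.78 TPM in crz1 in KCl.

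Summed over the 6 genes, the level was 73.0 ± 16.4 TPM in crz1cnb1 in KCl, against 52.8 ± 23.2 TPM in crz1cnb1 at 0 h (SD, n = 3 each). In crz1 it was 82.2 ± 9.48 TPM in KCl, against 55.6 ± 17.7 TPM at 0 h. DAN1 supplied 4.92% of that sum in crz1cnb1 in KCl and 0.527% in crz1cnb1 at 0 h, and 10.3% in crz1 in KCl and 1.31% in crz1 at 0 h. TIR1 and TIR3, the most abundant pair, thus carried most of the family's RNA in every group.

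**Figure D2:**
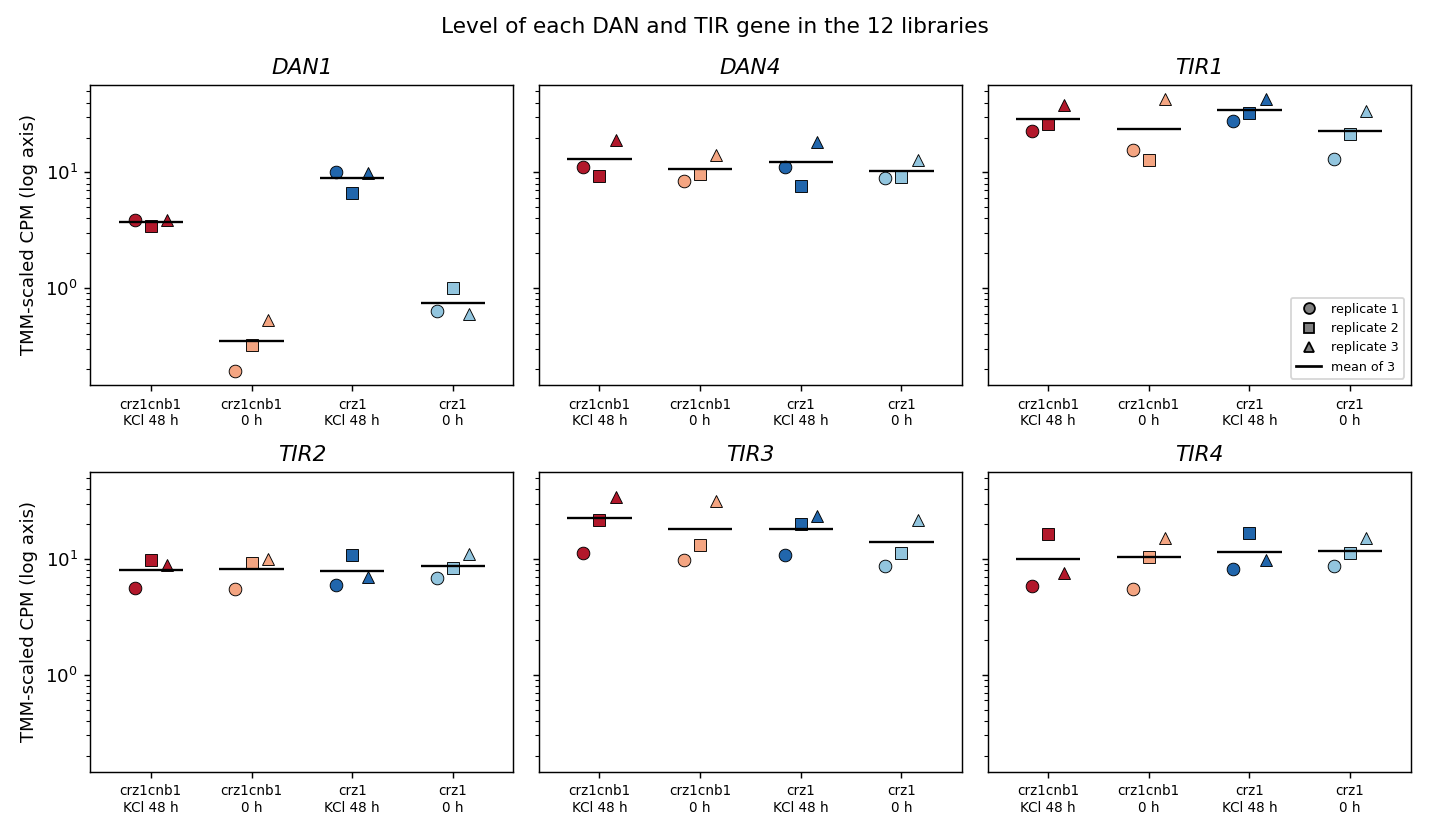
TMM-scaled CPM of each gene in every library (points) with a line at the group mean, on a log axis. The groups are crz1cnb1 in KCl, crz1cnb1 at 0 h, crz1 in KCl and crz1 at 0 h. CPM is scaled for library size and composition but not for gene length, so heights are not compared between genes here. The KCl libraries of DAN1 sit above all 0 h libraries, between 3.46 and 10.13 CPM against 0.1903 to 0.9996 CPM. In CPM each other gene overlaps between KCl and 0 h within each strain. TIR1 in crz1 overlaps in CPM, with 27.9 and 32.6 in the lower KCl libraries against 33.8 in the highest 0 h library. In TPM, which is not drawn, it does not overlap, at 33.4 to 42.7 in KCl against 13.3 to 31.0 at 0 h.

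DAN1 encodes the wall protein after which the DAN (delayed anaerobic) genes are named. It had 93, 79 and 77 counts in crz1cnb1 in KCl, against 4, 7 and 9 counts in crz1cnb1 at 0 h. In crz1 it had 254, 151 and 204 counts in KCl, against 14, 24 and 11 at 0 h. Every KCl library was above every 0 h library of the same strain, and also above those of the other strain.

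In TMM-scaled CPM, which corrects counts for library size and composition but not for gene length, DAN1 averaged 3.76 ± 0.26 in crz1cnb1 in KCl and 0.348 ± 0.17 in crz1cnb1 at 0 h, and 8.87 ± 1.98 in crz1 in KCl and 0.745 ± 0.22 in crz1 at 0 h (SD, n = 3 each). The log2 fold change of KCl over 0 h in edgeR's fit was 3.45 ± 0.35 in crz1cnb1 (SE; 95% interval 2.70 to 4.20) and 3.55 ± 0.30 in crz1 (2.89 to 4.21), or 10.9-fold and 11.7-fold. Ordered from the largest increase down, DAN1 had rank 1 of 6309 tested features in crz1cnb1 and rank 3 in crz1. Between libraries of the same number, the log2 difference was 3.82, 3.09 and 2.68 in crz1cnb1 and 3.81, 2.61 and 3.85 in crz1.

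The comparison of KCl with 0 h asked what differed after 48 h in KCl in each strain. As a description of the response used to choose the genes, 1 of the 6, DAN1, was among the features higher at an adjusted p below 0.05 in edgeR's quasi-likelihood fit, which were 0.365% of the 6309 in crz1cnb1 and 0.349% in crz1. Its KCl libraries were all higher in both strains, as for 3.12% of the 6309 features. Nothing is read from these counts, since this response was in view when the gene was chosen. Over the 6 genes the median log2 fold change was 0.29 in crz1cnb1 and 0.32 in crz1, against 0.02 and 0.01 over all features tested.

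DAN4 encodes the longest protein of the 6. It had 265, 214 and 372 counts in crz1cnb1 in KCl, against 178, 208 and 238 at 0 h, and 281, 175 and 377 counts in crz1 in KCl, against 196, 220 and 233 at 0 h. Its groups overlapped in both strains. The log2 fold change was 0.30 ± 0.34 in crz1cnb1 (SE; 95% interval -0.44 to 1.03) and 0.27 ± 0.34 in crz1 (-0.46 to 1.01). With 1 library left out it ran from -0.07 to 0.54 in crz1cnb1, the lowest without the third KCl library, and was -0.12 in crz1 without the third crz1 library in KCl. With the replicate number fitted beside the group, DAN4 had 0.26 ± 0.16 in crz1cnb1 (95% interval -0.10 to 0.62) and 0.21 ± 0.16 in crz1 (-0.14 to 0.57).

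TIR1 is a wall protein of cold shock and anaerobic growth. It had 547, 595 and 746 counts in crz1cnb1 in KCl, against 331, 276 and 732 at 0 h. In crz1 it had 699, 746 and 896 counts in KCl, against 288, 512 and 620 at 0 h. In both strains the third 0 h library was the highest of its group. The log2 fold change was 0.28 ± 0.43 in crz1cnb1 (SE; 95% interval -0.65 to 1.21) and 0.61 ± 0.43 in crz1 (-0.32 to 1.54). Without the third crz1cnb1 library at 0 h the value in crz1cnb1 was 1.03, and without the second it was -0.02. In crz1 it was 1.02 without the third 0 h library. In counts and in TPM every KCl library of crz1 was above every 0 h library of crz1, while in CPM these groups overlapped, with 27.9 and 32.6 in the lower KCl libraries against 33.8 in the highest 0 h library. Under the replicate block, which fits the replicate number beside the group, the log2 fold change of TIR1 was 0.41 ± 0.22 in crz1cnb1 (95% interval -0.08 to 0.90) and 0.68 ± 0.22 in crz1 (0.20 to 1.17).

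TIR3 encodes a further wall protein needed without air. It had 269, 501 and 681 counts in crz1cnb1 in KCl, against 208, 285 and 539 at 0 h, and 270, 463 and 482 counts in crz1 in KCl, against 193, 273 and 401 at 0 h. The KCl library was the higher in 3 of 3 pairs of the same number in each strain, by 0.19, 0.73 and 0.12 on the log2 scale in crz1cnb1 and by 0.30, 0.82 and 0.09 in crz1. The log2 fold change was 0.31 ± 0.50 in crz1cnb1 (SE; interval -0.76 to 1.38) and 0.37 ± 0.50 in crz1 (-0.70 to 1.45). Under the replicate block it was 0.34 ± 0.18 (-0.05 to 0.72) and 0.42 ± 0.18 (0.03 to 0.81) in the same strains. Without the block and without the third crz1cnb1 library, the value in crz1cnb1 was 0.97 when that library was of 0 h and -0.14 when it was of KCl, and in crz1 it was 0.86 without the third 0 h library.

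TIR2 and TIR4, the facing pair on chromosome XV, had intervals that spanned 0. TIR2 had 135, 223 and 174 counts in crz1cnb1 in KCl, against 116, 202 and 169 at 0 h, and 150, 248 and 145 counts in crz1 in KCl, against 152, 202 and 203 at 0 h. TIR4 had 140, 377 and 149 counts in crz1cnb1 in KCl, against 117, 227 and 260 at 0 h, and 205, 385 and 202 counts in crz1 in KCl, against 192, 269 and 279 at 0 h. In KCl both genes were highest in the second library of each strain. TIR2 gave a log2 fold change of -0.03 ± 0.31 in crz1cnb1 (95% interval -0.69 to 0.63) and -0.14 ± 0.30 in crz1 (-0.80 to 0.51). TIR4 gave -0.06 ± 0.43 (-0.996 to 0.87) and -0.01 ± 0.43 (-0.94 to 0.91) in the same strains (SE). Leaving out 1 library gave either sign for both genes in both strains, between -0.43 and 0.17 for TIR2 and between -0.63 and 0.32 for TIR4. Under the replicate block TIR2 had -0.03 in crz1cnb1 (95% interval -0.42 to 0.37) and -0.15 in crz1 (-0.54 to 0.24). TIR4 had -0.08 (-0.73 to 0.57) and -0.05 (-0.68 to 0.59) in the same strains.

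**Figure D3:**
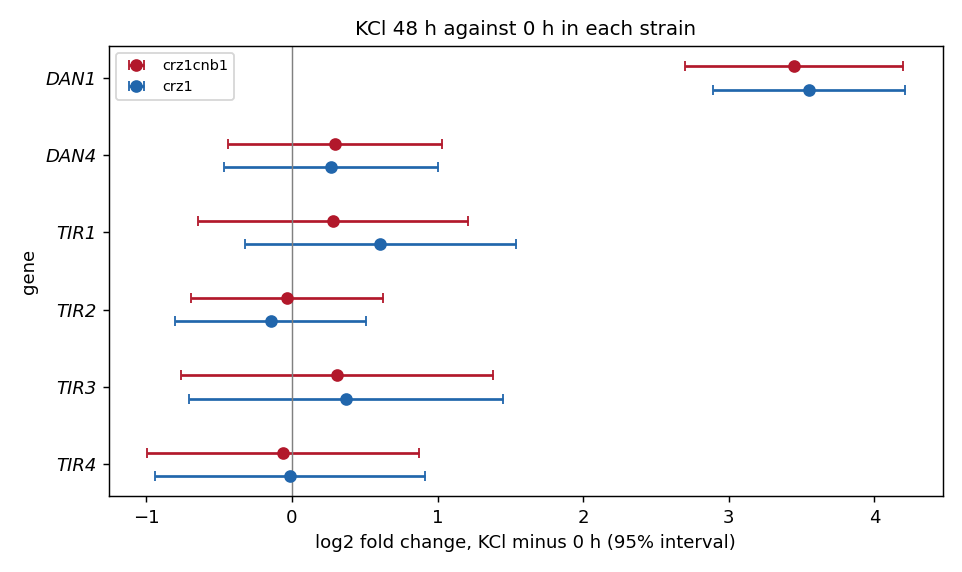
Log2 fold change of KCl over 0 h in crz1cnb1 (red) and crz1 (blue) for each gene, with its 95% interval from edgeR's fit without the replicate block. The intervals of DAN1 lie at 2.70 to 4.20 and 2.89 to 4.21, and those of the other 5 genes include 0.

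The comparison of crz1cnb1 with crz1 asked what the loss of calcineurin's regulatory subunit changed when Crz1 was absent. DAN1 was the lower in crz1cnb1 under both conditions: every crz1cnb1 library lay below every crz1 library at 0 h and in KCl. In KCl the log2 difference, crz1cnb1 minus crz1, was -1.24 ± 0.26 (SE; 95% interval -1.80 to -0.67), a 2.36-fold lower level. This did not pass edgeR's test over 6309 features (unadjusted p = 3.90e-04, adjusted p = 0.410), although only 5 features had a smaller p. DESeq2 called it, with an adjusted p of 0.00857. Under the replicate block edgeR's adjusted p was 0.177, and over all alternatives it ran from 0.00857 to 1.

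At 0 h, where DAN1 had 4 to 9 counts in crz1cnb1 against 11 to 24 in crz1, the log2 difference was -1.14 ± 0.39 (SE; 95% interval -1.99 to -0.29). It did not pass the same test (unadjusted p = 0.0117, adjusted p = 0.9997). Both strain differences had the crz1cnb1 libraries all lower, as did 0.412% of the 6309 features. Averaged over both conditions, a contrast chosen after the values were seen, the difference was -1.19 ± 0.23 (-1.70 to -0.68). For this average edgeR called 0 of the 6 genes and 0.111% of the 6309 features. DAN1 alone of the 6 had an unadjusted p under 0.05, and 116 of the 6309 features had one. The adjusted p for DAN1 was 0.100 in edgeR, 0.0739 with the replicate block and 0.00428 in DESeq2. In KCl and on average the strain difference of DAN1 thus passed the threshold in DESeq2 and not in edgeR, and at 0 h in neither.

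Both KCl responses of DAN1 were in view when the genes were chosen, so the difference between them is also given as a description. Over the alternatives this difference, crz1cnb1 minus crz1, ran from -0.66, on log2(TPM + 1), to 0.29. In edgeR's main fit it was -0.10 ± 0.48 (log2, SE), with a 95% interval of -1.13 to 0.93, so the estimated folds were close. That interval still allows responses that differ by a factor close to that of the strain difference. Across all features edgeR called 0 of 6309 for this difference (0%), with 18 at an unadjusted p under 0.05, of which 0 were DAN or TIR genes, and DESeq2 and limma on log2(TPM + 1) also called 0 of all features.

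The other 5 genes overlapped between the strains in both conditions. In KCl the log2 difference, crz1cnb1 minus crz1, was 0.08 ± 0.34 for DAN4, -0.26 ± 0.43 for TIR1, 0.02 ± 0.30 for TIR2, 0.32 ± 0.50 for TIR3 and -0.21 ± 0.43 for TIR4 (SE). With 1 library left out these ran from -0.27 to 0.48 for DAN4 and from -0.79 to 0.15 for TIR4, whose lowest value came without the second crz1cnb1 library in KCl. At 0 h the differences of these 5 lay between -0.17 for TIR4 and 0.38 for TIR3, but without the third crz1cnb1 library they were -0.68 for TIR1, -0.28 for TIR3 and -0.55 for TIR4. TIR3 was the higher in crz1cnb1 in all 6 pairs of the same number, by 0.07 to 0.56 on the log2 scale, with intervals of -0.75 to 1.39 in KCl and -0.70 to 1.46 at 0 h, or -0.14 to 0.63 and -0.07 to 0.72 with the replicate block. Of the 6 genes edgeR called 0 in either condition, against 0.0476% of the 6309 features in KCl and 0.0159% at 0 h. DAN1 was the 1 gene of the 6 with an unadjusted p under 0.05 in each condition. Of the 6309 features, 70 had such a p in KCl and 73 at 0 h. DESeq2 called 1 of the 6 in KCl, DAN1, and 0 at 0 h, and its totals over all features are given at the end.

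**Figure D4:**
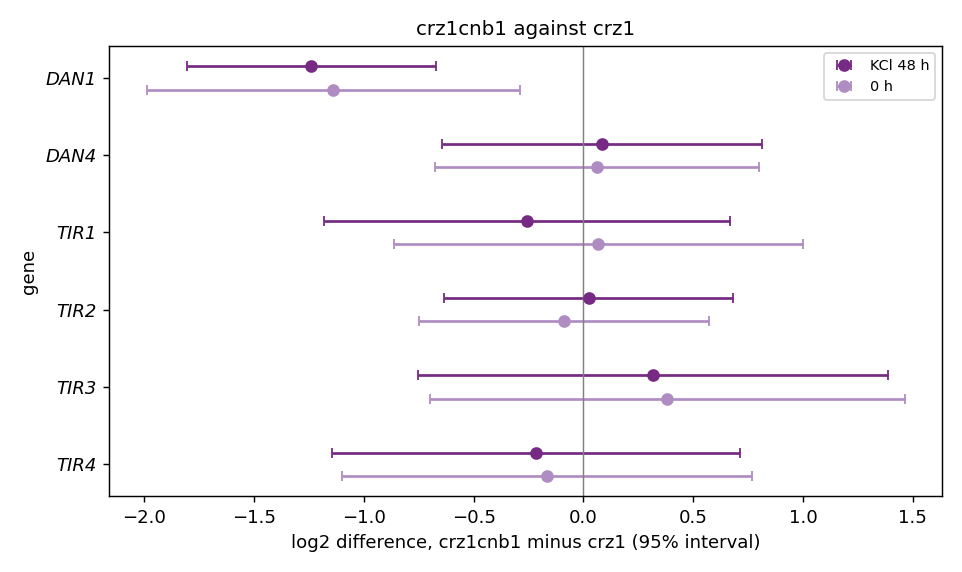
Log2 difference between strains, crz1cnb1 minus crz1, in KCl and at 0 h for each gene, with its 95% interval. DAN1 lies at -1.24 in KCl and -1.14 at 0 h with intervals below 0, and the intervals of the other 5 genes include 0.

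Much of the spread inside the groups followed the replicate number. DAN4, TIR1 and TIR3 were highest in the third library of all 4 groups, above their group means by 0.50, 0.63 and 0.73 on the log2 CPM scale on average. TIR1, TIR2, TIR3, TIR4 and DAN4 were below the group mean in the first library of all 4 groups. TIR2 and TIR4 were highest in the second library in KCl and in the third at 0 h, in both strains. DAN1 did not hold to 1 library in this way: the library numbered 3 was above the group mean in 3 of 4 groups, the library numbered 1 in 2 and the library numbered 2 in 1.

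The same pairs stand out in the correlation of log2 CPM over the 12 libraries, which share 4 groups and 3 replicate numbers and so are not independent points. Pearson's r was 0.89 for the neighbours TIR2 and TIR4 and 0.82 for TIR1 and TIR3, which are on different chromosomes. After the group means were taken out these were 0.91 and 0.88. DAN1 had 0.32 with its neighbour DAN4, 0.56 with TIR1 and -0.10 with TIR2, or 0.50, 0.44 and 0.06 after the group means were taken out. DAN4 with TIR4 had -0.10 and -0.06.

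**Figure D5:**
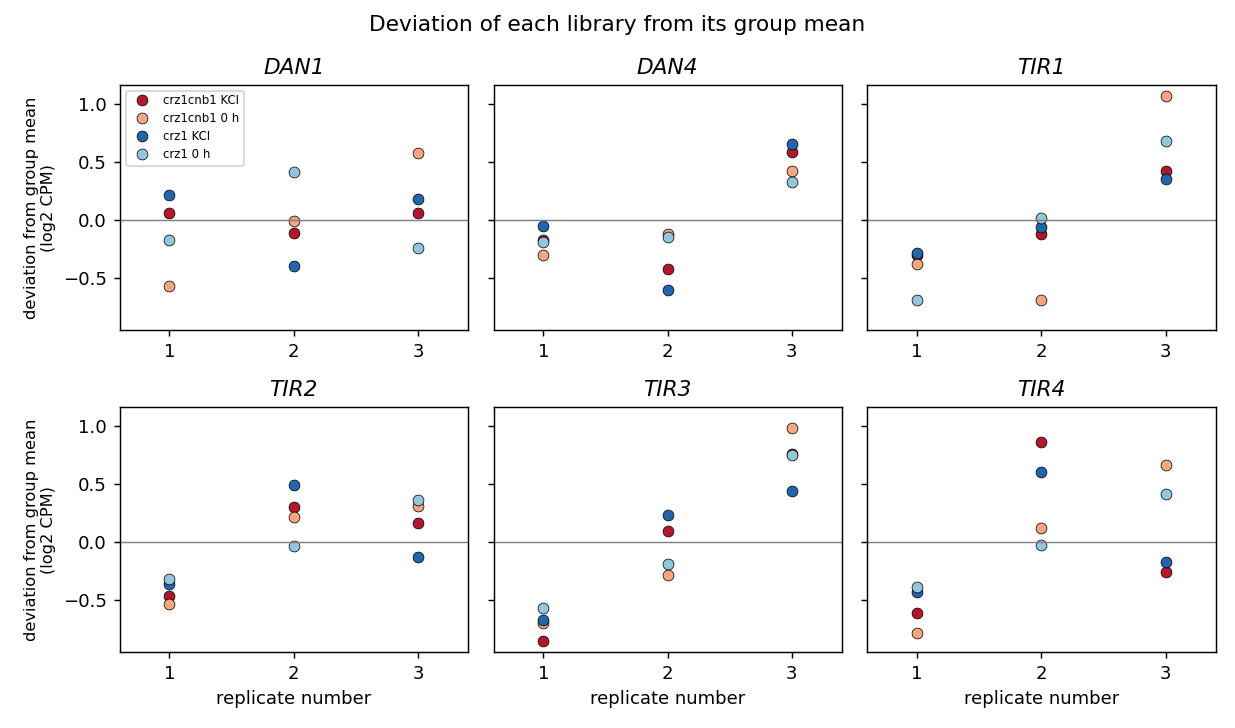
Deviation of each library from its group mean in log2 CPM, by replicate number, for each gene, with 1 point per group. Number 3 lies above 0 in all 4 groups for DAN4, TIR1 and TIR3, and number 1 lies below 0 in all 4 groups for every gene except DAN1.

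The named genes whose log2 CPM followed each member most closely over the 12 libraries differed between members. For DAN1 they were ARI1, an aldehyde reductase (r = 0.95), BDH2, a putative butanediol dehydrogenase (0.93), and PDR3, an activator of drug-efflux genes (0.93). All 3 were among the features that edgeR called higher in KCl, which were 0.365% of the 6309 in crz1cnb1 and 0.349% in crz1. They were picked for following DAN1, which was higher in every KCl library, so these calls are a description and not a test. Their log2 fold changes in crz1cnb1 and crz1 were 0.79 and 0.97 for ARI1, 1.63 and 1.62 for BDH2 and 0.93 and 1.06 for PDR3. For DAN4 they were SDS24 (0.99), LSP1, a core protein of the plasma membrane furrows called eisosomes (0.97), and ATG33, of mitochondrial autophagy (0.97). For TIR1 they were MOB1 (0.93), ALO1 (0.89) and VAC17 (0.88), and for TIR3 LAP3 (0.94), TOM20 (0.93) and THI7 (0.93). TIR2 had PHA2, PRE8 and GYP1 (0.94 each) and TIR4 had PHA2 (0.93), KRE9 (0.89) and MAS2 (0.89), so that this pair shared PHA2, of phenylalanine synthesis. With the means of the replicate numbers taken out, 1 of these 18 places was kept.

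The regulators of the DAN and TIR promoters were measured alongside. Of 8 genes for oxygen and sterol regulators, edgeR called 0 in KCl in either strain and 0 between strains, with the replicate block or without it. DESeq2 also called 0. Without the block, 0 had an unadjusted p under 0.05 in any of these comparisons. UPC2, the activator, had a log2 fold change of KCl over 0 h of 0.38 ± 0.18 in crz1cnb1 and 0.22 ± 0.18 in crz1 (SE). ECM22, its paralog, had -0.40 in crz1cnb1 and -0.43 in crz1, and SUT1, a regulator of sterol uptake, had -0.05 and -0.38. The repressors ROX1 and MOT3 had 0.04 and 0.07 in crz1cnb1 and -0.07 and -0.21 in crz1. HAP1, the haem-responsive activator, had 0.01 and 0.03, TUP1 0.02 and -0.06, and CYC8 0.19 and -0.11, each in crz1cnb1 and crz1. Under edgeR's replicate block UPC2 had 0.37 in crz1cnb1 (95% interval 0.14 to 0.59, adjusted p = 0.0675) and 0.21 in crz1 (-0.01 to 0.44). ECM22 had -0.41 in crz1cnb1 (-0.76 to -0.05, adjusted p = 0.167) and -0.43 in crz1 (-0.79 to -0.08, adjusted p = 0.153) under the block. In KCl against 0 h the block's intervals of the other regulators included 0. These are RNA levels, which do not measure the activity of the proteins.

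The PAU genes encode small seripauperin proteins related to the DAN and TIR proteins and are also known for expression without oxygen. The count table holds 24 of them, and 11 passed the filter. Of the 11, 5 had a positive log2 fold change of KCl over 0 h in crz1cnb1 (median -0.08) and 7 in crz1 (median 0.31). PAU3, PAU4, PAU6 and PAU12 were lower in KCl in both strains, at -1.12 to -0.51. PAU2, PAU5, PAU13, PAU17 and PAU23 were higher in both, at 0.12 to 1.60. In KCl against 0 h, edgeR gave an unadjusted p under 0.05 to 527 of the 6309 features in crz1cnb1 and 536 in crz1. In crz1cnb1 5 of the 11 PAU genes had such a p, 3 of them higher, and edgeR and DESeq2 called 0. In crz1 2 of the 11 had such a p, 2 of them higher, and edgeR called 1, where DESeq2 also called 1. That gene was PAU5, with 75, 62 and 68 counts in crz1 in KCl, against 26, 25 and 13 at 0 h, and with 49, 46 and 33 counts in crz1cnb1 in KCl, against 20, 30 and 15 at 0 h. PAU5 rose in crz1 by 1.60 ± 0.26 on the log2 scale (SE, edgeR adjusted p = 0.0114), and had a log2 fold change of 0.83 ± 0.26 in crz1cnb1 (adjusted p = 0.257). The difference between these responses was -0.77 ± 0.37 (adjusted p = 1).

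The call of PAU5 in crz1 was lost in 3 of 12 fits that left out 1 library, with an adjusted p of 0.0601 without the first crz1 library in KCl, 0.0567 without the second at 0 h and 0.0542 without the third at 0 h. With the replicate block 2 PAU genes rose in crz1, PAU5 and PAU2. PAU2 had 1.16 ± 0.28 under the block (SE, adjusted p = 0.0373) and 1.16 ± 0.36 without it (adjusted p = 0.265). Between strains edgeR and DESeq2 called 0 of the 11 in either condition, with 3 at an unadjusted p under 0.05 in KCl and 2 at 0 h, all lower in crz1cnb1. PAU24, also called DAN3 and named here after its values were seen, had 13, 15 and 7 counts in crz1cnb1 in KCl, against 37, 26 and 29 in crz1 in KCl. Its log2 difference was -1.34 ± 0.28 in KCl (SE, edgeR adjusted p = 0.410) and -0.78 ± 0.29 at 0 h (adjusted p = 0.9997). PAU24 was the lowest of the 11 in KCl, where the highest was PAU23 at 0.20 and 4 were positive. At 0 h the 11 ran from -0.92 to 0.47, with 5 positive. Of 50-base words, 24.7% of those in PAU5 and 52.9% of those in PAU24 occur elsewhere in the genome, so their counts may include reads of relatives.

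Genes of other anaerobic functions were counted in the same way. Of 8 further hypoxic genes edgeR called 0 in KCl in either strain, with 1 at an unadjusted p under 0.05 in crz1cnb1 and 2 in crz1, and DESeq2 called 0. Of the 6309 features 527 in crz1cnb1 and 536 in crz1 had such a p. COX5B, the cytochrome oxidase subunit made at low oxygen, had a log2 fold change of 0.95 ± 0.35 in crz1cnb1 (SE, adjusted p = 0.394, or 0.0981 with the replicate block) and 1.17 ± 0.35 in crz1 (adjusted p = 0.234, or 0.0487 with the block). The block called 304 of the 6309 features in crz1, against 36 without it. CYC7, the hypoxic form of cytochrome c, had 0.65 ± 0.54 in crz1cnb1 and 1.22 ± 0.54 in crz1. Other genes of this list went the other way, such as HEM13, with -0.55 ± 0.36 in crz1cnb1 and -0.31 ± 0.36 in crz1. Of the 8, 3 had a positive log2 fold change in crz1cnb1 (median -0.08) and 6 in crz1 (median 0.07). Between strains, without the block, edgeR called 0 of the 8 in either condition, 0 had an unadjusted p under 0.05, and DESeq2 called 0. With the block edgeR also called 0, with AAC3 at -0.31 in KCl (95% interval -0.56 to -0.06).

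Of 7 genes for sterol uptake and esterification edgeR called 0 in either strain, with 1 at an unadjusted p under 0.05 in each, and DESeq2 called 1 in each. Over all features 527 of 6309 in crz1cnb1 and 536 in crz1 had such a p, and DESeq2 called 116 and 104. HES1, which encodes a sterol-binding protein, had 5.95 ± 1.51 CPM in crz1cnb1 in KCl, against 2.47 ± 0.63 CPM at 0 h, and 7.29 ± 1.22 CPM in crz1 in KCl, against 2.92 ± 1.20 CPM at 0 h (SD, n = 3 each). Its log2 fold change was 1.27 ± 0.32 in crz1cnb1 (SE, edgeR adjusted p = 0.124) and 1.31 ± 0.31 in crz1 (0.103), and with the replicate block the adjusted p was 0.0128 and 0.00869. PRY1, which encodes a secreted sterol-binding protein, had 0.78 ± 0.58 in crz1cnb1 (adjusted p = 0.825, or 0.0193 with the replicate block) and 0.67 ± 0.58 in crz1 (0.916, or 0.0626 with the block). Over all 6309 features the block called 314 in crz1cnb1 and 304 in crz1, against 37 and 36 without it. Between strains, without the block, edgeR called 0 of the 7 in either condition, 0 had an unadjusted p under 0.05, and DESeq2 called 0. With the block edgeR also called 0, with AUS1 at -0.26 in KCl (95% interval -0.49 to -0.04).

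Among 11 mannoproteins of the wall outside the DAN and TIR genes edgeR called 0 in KCl in either strain, with 1 at an unadjusted p under 0.05 in each, and DESeq2 called 0. Over all features 527 of 6309 in crz1cnb1 and 536 in crz1 had such a p. SPI1, a wall protein of stress and stationary phase, had a log2 fold change of 1.07 ± 0.49 in crz1cnb1 (SE, adjusted p = 0.581, or 0.0478 with the replicate block) and 1.33 ± 0.49 in crz1 (0.380, or 0.0162 with the block). PIR3, a wall protein with internal repeats, had -0.53 ± 0.31 in crz1cnb1 (0.741, or 0.0395 with the block) and -0.39 ± 0.31 in crz1 (0.904, or 0.1225 with the block). Over all 6309 features the block called 314 in crz1cnb1 and 304 in crz1, against 37 and 36 without it. Between strains the log2 difference, crz1cnb1 minus crz1, was positive for 11 of 11 in KCl and at 0 h, with medians of 0.26 and 0.33 against 0.00 and 0.01 over all features. The share of all features positive in both conditions was not worked out. In counts, all of the 11 except TIP1, CWP1 and CCW14 were highest in the third library of every group. The 11 genes thus vary together, and their signs are not separate observations. Without the replicate block edgeR called 0 of these differences, 0 had an unadjusted p under 0.05, and DESeq2 called 0. With the block edgeR also called 0, but the 95% intervals of CWP2, SED1 and PIR3 lay above 0 in both conditions. They were 0.15 to 1.02, 0.09 to 0.61 and 0.18 to 0.76 in KCl. At 0 h they were 0.18 to 1.05, 0.20 to 0.71 and 0.33 to 0.90. That of CWP1 lay above 0 at 0 h alone (0.10 to 1.23), and those of the other genes of this list included 0. Of the 6 DAN and TIR genes 3 had a negative difference in each condition, DAN1, TIR1 and TIR4 in KCl and DAN1, TIR2 and TIR4 at 0 h.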

How the data were processed

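Poly(A) RNA of 12 libraries was analysed, 3 in each of 4 groups. Per the file headers, the authors deposited 2 tables with 1 column per library, raw counts for 7126 features and TPM for 6735 features, and 0 columns were unmatched. The submitters' processing notes name featureCounts, DESeq2 and build R64, without version or role. Not given in the sources used here are the strand setting, the handling of multiply matching reads, the annotation release and the aligner. Library totals were 21305485 to 21599279, so 4 to 9 counts carry a wide counting error.

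The members and gene lists were chosen with earlier results of these data known. Deposited counts of all 12 libraries were fitted together in R 4.3.3 with edgeR 4.0.16, after filterByExpr and TMM scaling (factors 0.791 to 1.17), by glmQLFit (robust, each group its own mean) and glmQLFTest, with Benjamini-Hochberg adjustment over 6309 features at 0.05. The common biological coefficient of variation was 0.223. Intervals use the fit's own degrees of freedom. The code was tested on simulated data.

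As a check of pairing, each library's deviation from its group mean was correlated with the others', at 0.309 to 0.827 for the same replicate number (18 pairs) and at -0.732 to 0.317 between others (36 pairs), so the numbers pair the samples, although no label names a shared batch. Alternatives were DESeq2 size factors, DESeq2 1.42.0, no filter, limma 3.58.1 on log2(TPM + 1), the replicate block, leaving out each library, and leaving out the 4 libraries numbered 2.

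Named genes were the 6 members, all 8 regulators, in each other list the called genes (at most 4) or else the 2 with the largest absolute log2 fold change in crz1cnb1, and the 3 named genes most correlated with each member (log2 CPM, prior count 2). Other genes of these lists, such as PAU2, PAU24, HEM13, AAC3, AUS1, CWP1, CWP2 and SED1, were named outside this rule, after their values were seen. Positions, promoters and coding sequences came from the RefSeq R64 genome, the build in the processing notes, in which all 6 members matched. Promoters were the 600 bases before the start codon. Protein sequences were not used here, so amino acid shares are counts of codons.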

Additional observations from a re-analysis of the deposited data

How the results depend on the processing

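The KCl response of DAN1, which was in view when the genes were chosen, stayed past the threshold in 18 of 18 alternatives in each strain, given as a description and not as support. Its log2 fold change moved most on log2(TPM + 1), to 1.79 in crz1cnb1 and 2.45 in crz1, since adding 1 to a level below 1 compresses the change. No DAN or TIR value that was called changed sign. Counts of called features moved more, and the cause was not tested. In KCl against 0 h edgeR called 37 in crz1cnb1 and 36 in crz1, DESeq2 116 and 104, and the replicate block 314 and 304. With the libraries numbered 2 left out, the count was 61 in crz1. Leaving out 1 library gave 9 to 54 in crz1cnb1, with 14, 12 and 9 without its 0 h replicates 1, 2 and 3 and 18 and 19 without its KCl replicates 1 and 3. In crz1 it gave 12 to 60, with 19, 16 and 16 without its 0 h replicates 1, 2 and 3, 12 and 60 without its KCl replicates 1 and 2, and 58 without the second crz1cnb1 library in KCl. Between strains at 0 h edgeR called 1, DESeq2 7, limma on TPM 4, the block 5, and 1 to 2 with 1 library left out. In KCl edgeR called 3, DESeq2 8, of which 1 was a DAN or TIR gene, and 1 with the libraries numbered 2 left out, and 1 to 4 with 1 library left out (1 without the first crz1cnb1 library). Averaged over both conditions edgeR called 7, DESeq2 20, of which 1 was a DAN or TIR gene, limma 11, the block 17, 3 without the libraries numbered 2, and 4 to 7 with 1 library left out. For DAN1 DESeq2 gave -1.23 in KCl and -1.19 on average, both called. The difference between responses had 0 calls under every alternative run. Of 18 most similar genes 8 were kept on log2(TPM + 1) and 1 with the number means taken out. Apart from the values given in the report, the block changed no call of a named gene in KCl against 0 h, between strains within a condition or between responses. DAN1's 4 to 24 counts per library at 0 h limit the precision of its fold changes.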
